A study of Mus musculus with 2 samples.

Results

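The long splice junctions of the mouse stomach were selected on their own measured values: a junction had to span at least 50000 bases and to carry at least 5 reads in each of the 2 counts, R1 and R2, written in its name. Of 340787 junctions in the deposited table, 2142 met both limits. They made up 2.86% of the 74900 junctions with at least 5 reads in both counts, and held 0.846% of all junction reads. Length and read counts chose these junctions, so both are given below as a description and support nothing.

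Stomachs were taken at 8 weeks of age from C57BL/6J, an inbred laboratory mouse strain. The labels describe littermates, both sexes pooled, and name no treatment or mutation, so the series holds 1 group. Polyadenylated RNA over 200 nucleotides, freed of ribosomal RNA, was sequenced from 2 libraries as stranded read pairs of 76 nucleotides, with spike-in RNA added. The labels give both libraries 1 donor identifier, so separate animals are not shown and the spread given here may be technical. Junction reads came to 21172894 for R1 and 29660944 for R2. No source used here ties R1 or R2 to a library, so the 2 counts are kept apart from the 2 expression tables throughout.

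An intron is removed when the spliceosome joins the end of an upstream exon, the donor side, to the start of a downstream exon, the acceptor side. A sequencing read that crosses the joined exons aligns to the genome with a gap, and that gap is recorded as a junction. Most mammalian introns are far shorter than those described here. Very long introns are known mainly from genes of the cytoskeleton, cell adhesion, signalling and transcriptional control, often as intron 1 of the gene, and transcribing them takes long.

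The label of very long introns held for the smaller share of these junctions. A junction was matched to an annotated intron of GENCODE M21 when chromosome, strand and exact length were the same and at least 1 other junction of that gene lay at the same spacing. This matched 667 of the 2142 long junctions (31.1%) to 533 genes, 529 of them protein-coding. The remaining 1475 matched no annotated intron and are called unmatched long junctions. Flag A of the deposited names, whose meaning is not given in the sources used here, was 1 in 658 long junctions (30.7%), against 90.1% of all junctions with at least 5 reads in both counts. Of those 658, 632 were matched introns.

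The match failed more often with length. Of 1011 junctions from 50000 up to 100000 bases, 50.7% were matched, of 670 up to 200000 bases 21.04%, and of 461 from 200000 bases upward 2.82%. For comparison, 93.9% of junctions under 5000 bases and 85.6% of those from 5000 up to 50000 bases were matched by the same procedure. The longest long junction spanned 1026017 bases and the longest matched intron 339689.

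**Figure D1:**
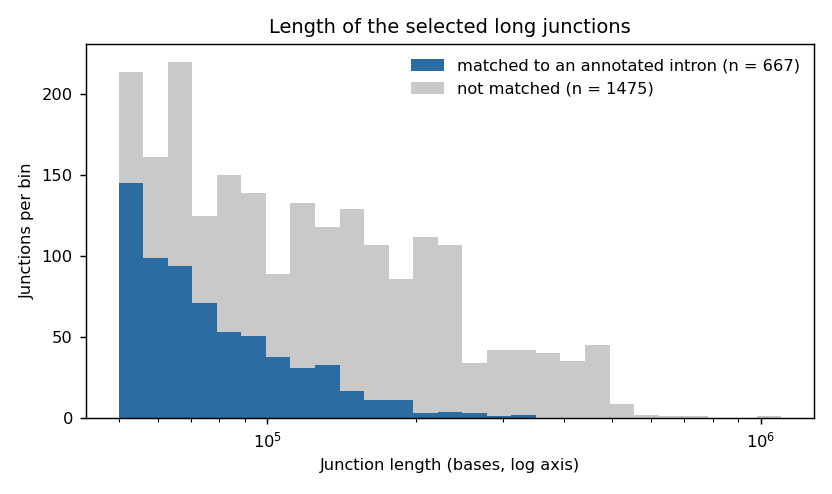
Number of long junctions per bin of junction length in bases (log axis), with the 667 matched to an annotated intron in blue and the 1475 unmatched in grey, stacked. Matched introns gather at the short end and none exceeds 339689 bases.

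Exon sequence at the joined ends is shown for 5 matched introns between coding exons. They are examples with at least 1000 reads each, not a ranking by reads. Each line gives 15 bases of the upstream exon in lower case followed by 15 bases of the downstream exon in capitals, 5′ to 3′ on the transcript, read from GENCODE M21 transcripts. On mm10, the annotation's build, the intron of App lay at chr16:85120698-85173501 on the minus strand, that of Igfbp7 at chr5:77355672-77407539 on the minus strand and that of Chn2 at chr6:54040156-54173463 on the plus strand. The intron of Ptprn2 lay at chr12:116485974-116580398 and that of Eif2ak1 at chr5:143818009-143871862, both on the plus strand. The gap between lower case and capitals is 52804 bases of genome in App and 133308 in Chn2.
App: gttcgggctctggagGTACCCACTGATGGC
Igfbp7: gcacctgcgagcaagGTCCTTCCATAGTGA
Chn2: cctccgtgtcctctgATGCTGAGGAATACC
Ptprn2: tcccggggcgcctggGATGCTTGTTTGAGG
Eif2ak1: accccaagtatgatgAGTCCGATGTCCCCG

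App, which encodes the amyloid precursor protein, held the most reads of any matched intron. Its intron 1, at mm9 chr16:85120943-85173746, had 15436 R1 and 5546 R2 reads. Igfbp7, a secreted protein that binds insulin-like growth factors, followed with 11767 and 8703 reads over an intron of 51868 bases. After these 2 introns the counts dropped several-fold.

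Atp8b1, a phospholipid flippase, had 1597 R1 and 2150 R2 reads over 55299 bases. Chn2, a regulator of the small GTPase Rac, had 1659 and 1035 reads over 133308 bases, and Raly, an RNA-binding protein, 1701 and 596 reads over 65720 bases. Myo6, an unconventional myosin, had 1041 and 670 reads, and Ptprn2, a phosphatase-like protein of secretory granules, 984 and 562. In all, 19 matched introns had at least 1000 reads and 188 at least 100, while the median was 51. Of the 20 with most reads, 18 were intron 1 of the transcript of highest level that held them.

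The longest matched introns carried few reads. Magi1, a scaffold of tight junctions, held the longest matched intron, of 339689 bases, with 11 R1 and 17 R2 reads. Ank3, which encodes the membrane anchor ankyrin-G, came next with 324148 bases and 23 and 15 reads. The 13 matched introns of 200000 bases or more had a median of 38 reads and at most 93, in the ephrin ligand gene Efna5, against medians of 45 from 100000 up to 200000 bases and 54 below that. Smyd3, Slit3, Gpc6, Cadm1, Ext1, Fbxl7, Cdh13, Bcas3 and Kcnma1 were among these 13. The level of the genes differed between the bands too. Its median was 2.5 TPM (a level explained below) for the 13, 3.605 from 100000 up to 200000 bases and 6.225 below that. The part of gene level in the read counts was not tested.

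Several genes carried a run of such introns: 68 genes held 2 matched introns, 15 held 3, 8 held 4 and 3 held 5. Together these 94 genes had 228 of the 667. The 3 with 5 were Cdh13, a cadherin without a cytoplasmic domain, Lpp, a LIM-domain protein of adhesion sites in muscle, and Ptprn2. In Cdh13, 5 introns that add to 737666 bases had from 44 to 150 reads. In Lpp, 5 introns that add to 400414 bases had from 39 to 119 reads. The highest count was 3.41 times the lowest in Cdh13 and 3.05 times in Lpp.

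Ptprn2 was less even, with 1546 reads at intron 1 and from 63 to 208 at the other 4. Gmds, the enzyme that begins GDP-fucose synthesis, had 1752 reads at one long intron and 28 at the lowest of its 4. Kcnq1, the potassium channel subunit used by acid-secreting parietal cells, ranged from 13 to 556 reads over 4. Slc39a11, a zinc transporter, ranged from 115 to 1410 over 4. In the mitochondrial aminoacyl-tRNA synthetase gene Fars2, by contrast, all 4 lay between 59 and 76 reads. Across the 94 genes the highest count was a median of 2.34 times the lowest, and at least 5 times the lowest in 28 genes. Alternative introns that share an end are among these: 64 matched introns shared a donor or an acceptor with another one.

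Most of the matched introns were intron 1 of an annotated transcript, a property the selection did not use. Of the 667, 409 (61.3%) were intron 1 of at least 1 annotated transcript, against 44.3% of matched junctions from 5000 up to 50000 bases and 22.7% of shorter ones. The whole intron lay before the start codon in at least 1 transcript for 164 (24.6%), against 17.2% and 4.94%. In the transcript of highest level that held it, the intron was number 1 for 370, number 2 for 116 and later for 181. It lay between coding exons in 468, before the start codon in 139, in a transcript with no coding region in 59 and after the stop codon in 1. No test was made of these shares, since introns of 1 gene are not independent.

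Reads at the long intron were set against those at other junctions of the same gene. For the 616 matched introns with at least 3 other matched junctions, the ratio to the median of the others had a median of 2.33. It was 1.39 against the mean of the others and 0.41 against the largest, so the direction depends on the reference. Long introns did not stand apart here, since the same median was 2.33 for junctions from 5000 up to 50000 bases and 1.77 for shorter ones. The long intron needed at least 5 reads in both counts to be selected, while the others needed only 1 read in all, a filter that favours higher ratios, so the values are a description. A second reference, the other introns of the transcript of highest level, was chosen after seeing the data. There 515 matched introns had at least 3 other introns with a median above 0, and their reads were a median of 2.75 times that median, with an interquartile range from 1.15 to 7.39. The ratio was above 2 in 305, between 0.5 and 2 in 158 and below 0.5 in 52. As intron 1 the long intron had a median ratio of 4.42 (273 introns), and at later places 1.94 (242 introns). This gap went with the read count, which is also the numerator of the ratio. Against the other junctions of the gene, the median at 50 reads or more was 5.06 for intron 1 and 2.28 for later introns. Under 50 reads it was 1.89 and 1.78. Intron 1 of shorter junctions was not compared.

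The highest ratios within that transcript came from introns set against a low median of the other introns. Introns of the transcript with no matched junction counted as 0 in that median, so the size of these ratios is a description. Myo6 had 1711 reads at its long intron, 855.5 times the median of the other introns of that transcript. Ghr, the growth hormone receptor, stood at 406.8 times and Atp8b1 at 374.7 times. Eif2ak1, the heme-regulated kinase of translation initiation, stood at 295.25 times and Stk39, a kinase that acts on cation-chloride cotransporters, at 294.5 times. All 5 are intron 1 of the transcript used. In Eif2ak1 the 1181 reads of the long intron faced a median of 5 reads over 12 other matched junctions of the gene. At the low end, a 164533-base junction of Kcnq1, which spans 2 of the gene's other long introns, had 5 R1 and 8 R2 reads, 0.048 times the median. Tmem164, Sipa1l3 and Ephb2 also held introns under 0.2 times.

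**Figure D2:**
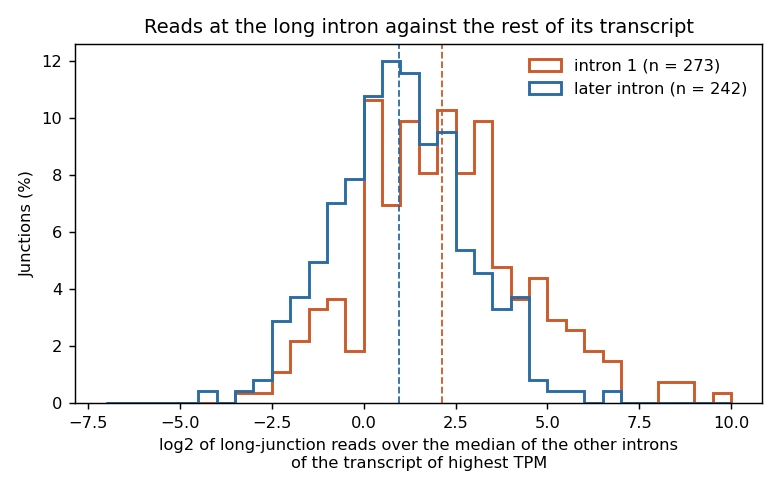
Distribution of the log2 ratio of reads at the long intron to the median of the other introns of its transcript of highest TPM (horizontal axis), as a percentage of the 273 introns in place 1 (orange) and of the 242 in later places (blue), with dashed lines at the medians. Intron 1 lies further right, at a median ratio of 4.42 against 1.94.

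Other junctions at the same ends were measured next. The long junction took at least 95% of the reads at its donor in 514 matched introns, at its acceptor in 458 and at both in 371. It took all reads at both ends in 273. It took under 50% at the donor in 28 and at the acceptor in 66. Rbms1, an RNA-binding protein, gave a clear minor form: its 120218-base intron had 100% of the reads at its donor and 5.05% at its acceptor. Raly had 42.7% at its donor. Mbnl1, a regulator of alternative splicing, had 72.4% at its donor and 98.5% at its acceptor.

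The transcript tables gave a readout that the selection did not use, the share of the gene's TPM (transcript level per length, set against the library total) in transcripts whose annotation holds the intron. The median share was 89.6% over 562 matched introns whose genes averaged 1 TPM or more. It was at least 90% in 280 and under 10% in 47, and for 31 of the 667 no transcript that holds the intron was measured. Rbms1 stood at 1.59% and 1.94% in the 2 libraries, low like its acceptor share. Raly stood at 38.1% and 32.9%, near its donor share.

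Other genes gave unlike values in the 2 readouts. A donor share covers only the reads at that donor, while the TPM share covers all transcripts of the gene. The 2 measures therefore need not match. Mbnl1 transcripts with the intron took 9.60% and 12.9% of its TPM, although the junction took 72.4% of donor reads. Mylk, the myosin light chain kinase of smooth muscle, had 128 R1 and 212 R2 reads at a 70064-base intron with 98.0% of its donor reads. The transcripts that hold it took 2.22% and 2.51% of Mylk TPM. Myo6 transcripts took 44.7% and 32.3%. The deposited transcript models are of an earlier annotation release than the one used for matching, and its part in these gaps was not tested.

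The genes of matched introns were expressed above the common limit but not highly. Of 528 protein-coding genes with a level, 438 (82.95%) had a TPM of at least 1 in both libraries, against 48.9% of all 21474 protein-coding genes, and the read minimum itself favours expressed genes. Over all genes of matched introns the median TPM was 4.35 in replicate 1 and 5.02 in replicate 2. The 438 had a median of the mean TPM of 6.65, and all 10499 protein-coding genes past the same limit one of 8.95. Of the 10499, the 961 with an annotated intron of at least 50000 bases had a median of 4.675, and the rest 9.565. So the 438 lay above the genes with such an intron, where the read minimum again favours expressed genes. In bulk tissue, fewer cells of a type and less RNA per cell cannot be told apart.

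Levels of the leading genes differed in how well the libraries agreed. Igfbp7 stood at 1657 ± 946 TPM (mean ± SD, n = 2), with 2326 in replicate 1 and 988 in replicate 2. App stood at 98.8 ± 28.4 TPM (n = 2) and Chn2 at 31.6 ± 15.7 TPM (n = 2). Ptprn2 stood at 36.2 ± 1.28 TPM (n = 2). Homer2, a scaffold protein, had 752 R1 and 585 R2 reads at its 57048-base intron 1 yet only 1.76 and 1.75 TPM. Across 665 matched introns the reads and the mean TPM had a Spearman correlation of 0.46, given as a description, since introns of 1 gene share their TPM and both come from the same RNA.

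How many annotated long introns reached the limits depended on level. The annotation holds 5290 introns of at least 50000 bases in 2082 protein-coding genes, and 663 of them (12.5%) were among the selected junctions. The share was 0.24% in genes under 0.1 TPM, 4.83% from 0.1 to 1 TPM, 16.1% from 1 to 5, 31.8% from 5 to 20 and 41.3% at 20 TPM or more. In genes at a mean TPM of at least 1 it fell with length, from 25.1% of 1816 introns up to 100000 bases to 20.8% of 577 up to 200000 bases and 8.87% of 124 longer ones. The median TPM of these genes fell too, from 4.17 to 3.005 and 2.76 in the same order. At this depth an intron that was not seen is not shown to be unused.

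**Figure D3:**
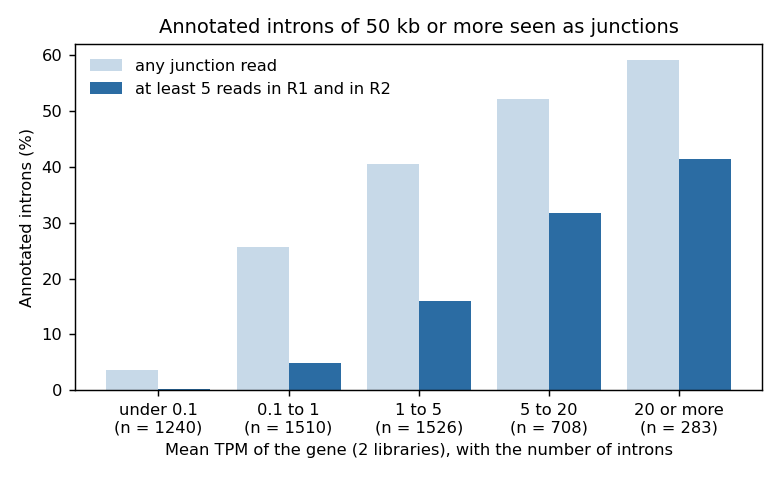
Percentage of annotated introns of at least 50000 bases in protein-coding genes that were seen with any junction read (pale bars) or with at least 5 reads in R1 and in R2 (dark bars), by the mean TPM of the gene over 2 libraries. The dark bars rise from 0.24% to 41.3%.

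Matched introns were next counted in 7 gene lists of 266 genes. Of all 2082 protein-coding genes with an annotated long intron 529 (25.4%) held a selected one, and of the 1043 averaging 1 TPM or more 459 (44.0%). Of 21 smooth muscle and actin cytoskeleton genes with an annotated long intron, 13 (61.9%) held a selected one, among them Mylk, Actn1, Itga1, Lpp, Parva and Dmd. Actn1, an actin cross-linker, had 76 R1 and 152 R2 reads at 50513 bases. Of 22 adhesion, junction and polarity genes, 13 (59.1%) did. Cdh11, a mesenchymal cadherin, had 133 and 79 reads, Ptprj, a receptor phosphatase, 81 and 129, and the polarity protein Pard3 33 and 24 at a 96736-base intron. Tjp1 and Cgnl1 had a TPM of at least 1 and an annotated long intron, and none selected.

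Of 58 transcription factor and chromatin genes with such an intron, 19 (32.8%) held a selected one. Foxp1, a forkhead repressor, had 95 R1 and 249 R2 reads at an 86793-base intron, and 4 selected introns in all. Cux1, a homeobox factor, had 76 and 202 reads at 56266 bases, and Tcf7l2, an effector of Wnt signalling, 19 and 52 at 90557 bases. Of 16 RNA-processing genes 8 (50%) did, led by Mbnl1 (514 and 531 reads), Rbpms (261 and 106) and Celf1 (156 and 209).

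Of 46 signalling genes 13 (28.3%) held a selected intron, a share near that of all genes, led by Ghr with 713 R1 and 304 R2 reads at 124991 bases and Stk39 with 330 and 259 at 61492 bases. Of 20 channel and transporter genes 9 (45%) did. Besides Atp8b1, Slc39a11 and Kcnq1 these included Ano1, the chloride channel of pacemaker cells of the gut, with 40 and 76 reads at 73106 bases. Of 26 genes of ubiquitin, vesicle and membrane traffic 11 (42.3%) did, led by Rab27b, a GTPase of secretory granule release, with 1465 and 518 reads at 56885 bases. The lists were assembled with results of these data known, so their counts are a description.

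The 2 counts of the long junctions were compared after scaling by total reads, which leaves the median of all 74900 junctions at -0.19 on the log2 scale of R2 over R1. Long junctions had a median of -0.47 and matched introns -0.29. R2 was at least 2-fold higher in 173 long junctions (8.08%), against 9.33% of all junctions, and at least 2-fold lower in 610 (28.5%), against 16.2%. Among matched introns 55 (8.25%) were higher and 153 (22.9%) lower. R1 and R2 entered the selection, so no test is given. Scaled by the median of ratios instead, which moves every value by 0.19, 244 long junctions (11.4%) were higher and 474 (22.1%) lower. The shares of all junctions were not counted under this scaling, so these 2 have no like background. The share of higher among those beyond 2-fold went from 22.1% to 34.0%.

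Among matched introns, the lower values gathered in intron 1. Intron 1 had a median log2 ratio of -0.47 in 370 introns, with 108 (29.2%) at least 2-fold lower and 28 (7.57%) higher. Later introns had -0.15 in 297, with 45 (15.2%) lower and 27 (9.09%) higher. Over all 74900 junctions the shares were 16.2% lower and 9.33% higher. Intron 1 of shorter junctions was not compared, so the lean is not shown to be particular to long introns. All of the 20 matched introns with most reads were lower in R2 under total-read scaling, although Atp8b1, at -0.06 (interval -0.15 to 0.04), turned positive under the median of ratios. App, with a log2 ratio of -1.96, had an exact 95% binomial interval from -2.01 to -1.92, which covers counting error only. Raly stood at -2.00 (interval -2.14 to -1.86). An interval wholly beyond 2-fold was found for 49 matched introns (7.35%) on the lower side and 7 (1.05%) on the higher side. Intervals were not computed for all junctions, so these counts have no background share.

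Among matched introns, the most extreme ratios rested on fewer than 100 reads each. Ncoa2, a nuclear receptor coactivator, had 56 R1 and 6 R2 reads, and Lrrfip1 39 and 5. Wnt5b, a secreted Wnt ligand, had 42 and 6, and the Zfand3 intron at mm9 chr17:30197796-30272267 had 70 and 10. On the other side stood Babam2 with 5 and 44, Cyyr1 with 6 and 50, Hdac4, a histone deacetylase, with 7 and 56, C530008M17Rik with 5 and 40, and Pard3b with 6 and 46. Of the 10 lowest and 10 highest ratios among all long junctions, 4 and 5 belonged to matched introns. Unmatched ones with more reads were among the rest, such as 358 R1 against 20 R2 between the spans of Bglap3 and Rhbg, and 65 against 841 from the span of Tmem132b. In Lpp, introns 7 and 9 were both higher in R2, at 16 against 76 and 12 against 57 reads.

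**Figure D4:**
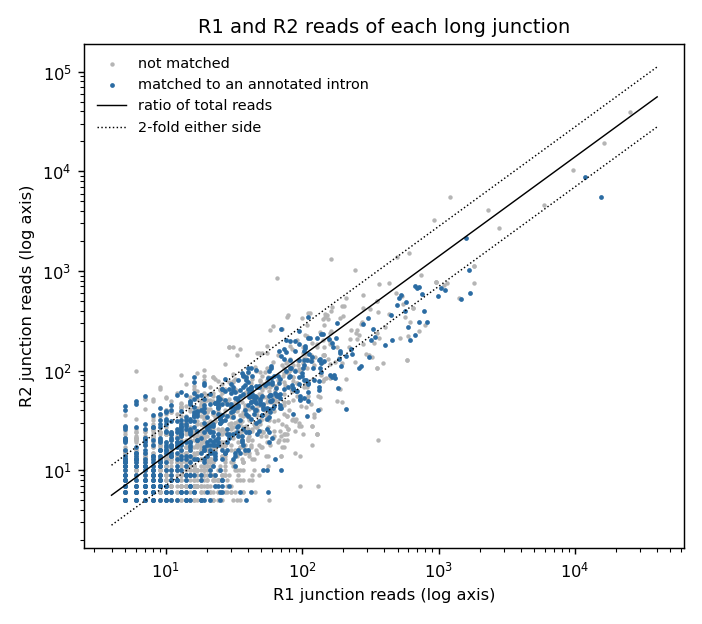
R1 and R2 reads of each long junction (both log axes), matched introns in blue and unmatched in grey, with the ratio of total reads as a solid line and 2-fold either side dotted. The 2 most abundant matched introns, App and Igfbp7, lie below the solid line.

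The 1475 unmatched long junctions were sorted by whether their ends were donors or acceptors of matched junctions. Both ends were known and belonged to different genes in 169, and to the same gene in 47. A further 179 had 1 known end. No end was known in the rest, of which 991 carried a 0 in flag C, also undefined in the sources used here, and 89 a 1. These 991 had a median length of 152398 bases and held 44.7% of the reads of all long junctions, against 30.03% for the matched introns. Of their 192218 reads, 65107 belonged to 1 junction. Their median was 29 reads, against 51 for the matched introns.

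The transcribed contigs that the authors deposited, each with a strand and a signal, were a readout that the selection did not use. They come from the same libraries as the junction reads, and a read across a junction also covers the exon bases beside it. So the 2 are not independent. A contig of the same strand reached both ends of 664 of the 667 matched introns (99.6%). It did so for 36.7% of the 169 that joined 2 genes, 31.8% of those with 1 known end and 87.6% of the 991. Within the matched introns themselves, a median of 3.31% of the length lay in contigs of the same strand, and 38 introns had at least 20%.

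Junctions between 2 genes joined close relatives for the most part. The 169 fell on 79 ordered pairs of genes, of which 60 shared the opening 3 letters of their symbols. Gsta1, a glutathione S-transferase, and the gene model Gm10639 made up the pair with most reads, 1477 R1 and 4712 R2 over 4 junctions. Plac9b and Plac9a had 2205 and 1626 over 6, the extracellular matrix genes Tnxb and Tnxa 782 and 1146 over 4, and the complement genes C1ra and C1rb 634 and 1006 over 7. Keratins, the intermediate filaments of epithelia, gave junctions into Krt19 with donors in Krt17, Krt14, Krt16 and Krt42, and 1 with a donor in the gene model Gm11597.

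The exons at these ends were alike in sequence. For each of the 169, the exon at the junction was compared with the exon that the partner gene's own intron joins, in GENCODE M21 transcripts and over up to 75 bases from the splice site. The longest identical run, on the better of both sides, had a median of 71 bases. It reached at least 20 bases in 151 and at least 10 in 167. Krt19 shows this at the donor side of the junctions into it. The 30 bases that end the upstream exon of its own intron are given with those of 3 other keratins, capitals marking the run identical to Krt19 up to the splice site. In the line of Krt19 itself the capitals are those shared with Krt17. On mm9 the 3 junctions lay on the minus strand at chr11:100002482-100119056 (Krt17), chr11:100002482-100065737 (Krt14) and chr11:100002482-100108415 (Krt16).
Krt19: GAGATTGAGCTGCAGTCCCAGCTCAGCATG
Krt17: GAGATTGAGCTGCAGTCCCAGCTCAGCATG
Krt14: gagatcGAGCTGCAGTCCCAGCTCAGCATG
Krt16: gagattgaaCTGCAGTCCCAGCTCAGCATG

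The runs of Krt17, Krt14 and Krt16 with Krt19 were 30, 24 and 21 bases. At this Krt19 acceptor the reads followed the same order. Krt17 to Krt19 had 1804 R1 and 1132 R2 reads, Krt14 to Krt19 1086 and 717, and Krt16 to Krt19 654 and 424. The own junctions at that Krt19 acceptor had 11135 and 16211 reads. So R1 was the higher count at all 3 long junctions and R2 at the own junctions.

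At the acceptor side, the start of the downstream exon shows the same likeness in a cytochrome P450 pair and a trypsin pair, with capitals for the run identical from the splice site. The Cyp2c65 to Cyp2c66 junction lay at mm9 chr19:39135688-39216380 and the Try4 to Prss2 junction at mm9 chr6:41254579-41474451, both on the plus strand.
Cyp2c65: TTTTCAAAAGTCTATGGCCCTGTGTTcact
Cyp2c66: TTTTCAAAAGTCTATGGCCCTGTGTTtact
Try4: TGAACAACCCAGACCTGCTCCAGTGcctgg
Prss2: TGAACAACCCAGACCTGCTCCAGTGtgttg

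The Cyp2c65 to Cyp2c66 junction had 53 R1 and 97 R2 reads, and the Try4 to Prss2 junction 71 and 262. The digestive trypsins are products of the pancreas, whose markers Pnlip, Cela3b and Ins2 summed to 1.36 and 1.23 TPM in the 2 libraries, with none at a mean of 1 TPM. Try4 itself stood at 57.8 and 185 TPM. The part of other tissue in this pair was not tested.

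Many of these junctions carried exactly the counts of the genes' own junctions. In 68 of the 169, R1 and R2 both equalled the summed counts of the matched junctions at the same donor or the same acceptor, and in 28 they equalled both. A junction from C1ra to C1rb had 144 R1 and 287 R2 reads, as had the own junction at its donor and the own junction at its acceptor. Plac9b to Plac9a at mm9 chr14:26710342-26862037 had 958 and 773, again the counts at both ends. The Tnxb to Tnxa junction with most reads had 356 and 498, the counts at its donor. More reads than the own junctions of both ends were found for 1 of the 169.

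Counted in the same way for every class, a junction with identical R1 and R2 at a shared end was found for 87 of the 169 (51.5%). It was found for 29.1% of those with 1 known end, 12.7% of the 991 and 2 of the 667 matched introns (0.30%). How the authors' alignment placed reads that match several sites is not given in the sources used here, and its part in these counts was not tested.

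**Figure D5:**
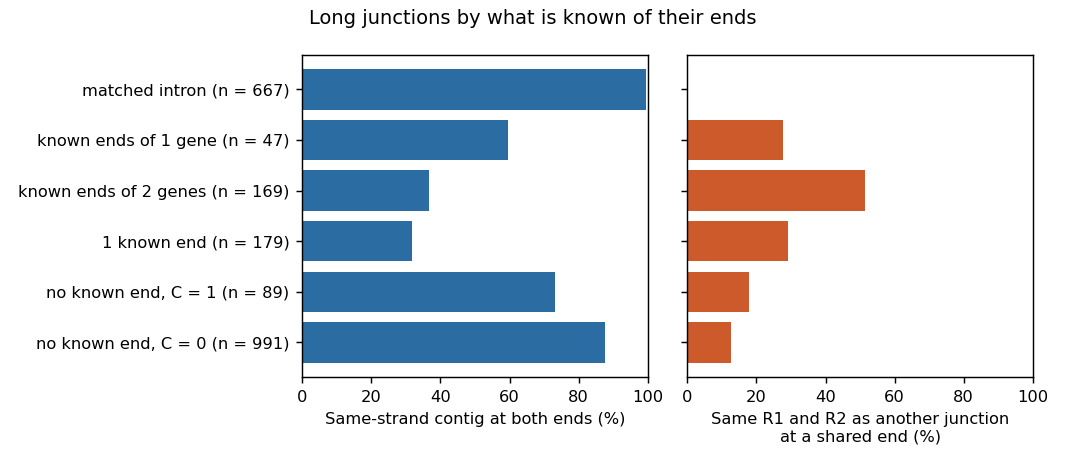
Long junctions by class of their ends, with the percentage that have a same-strand contig at both ends (left, blue) and the percentage that have the same R1 and R2 as another junction at a shared end (right, orange). Matched introns stand at 99.6% and 0.30%, junctions between 2 genes at 36.7% and 51.5%.

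The long junction with most reads was unmatched. A 261632-base junction at mm9 chr4:121870932-122132563 on the minus strand had 25192 R1 and 39915 R2 reads and no known end. The next, of 72606 bases, left a donor of Sprr2a2 and was unmatched too. App and Igfbp7 followed. Below them, an unmatched junction of 208284 bases at mm9 chr6:30479971-30688254, minus strand, had 9682 and 10350. The 261632-base and the 208284-base junction had contigs at both ends. The signals were 703 and 973 for the former and 756 and 570 for the latter. The median at the weaker end of matched introns was 2.30, but these had a median of only 51 reads, so the values are not compared at like read counts. A 140286-base junction at mm9 chr7:130363558-130503843, plus strand, had 5894 and 4650.

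The spans with most ends of unmatched junctions were those of Sprr2a2 and Pgc. Sprr2a2, a small proline-rich protein of the cornified epithelium, had 65818 and 29922 TPM, and 85 unmatched long junctions had an end within its span. The one with most reads ran 72606 bases from a known donor of Sprr2a2, with 16241 R1 and 19095 R2 reads. Pgc, which encodes the pepsinogen of chief cells, had 101314 and 148481 TPM and 75 such junctions. Among the other spans named here, the order by such junctions differed from the order by TPM. The counts are not adjusted for the length of the span, and their relation to level was not tested. Clps, a cofactor of pancreatic lipase, stood at 194378 and 278891 TPM with 6 such junctions, and Plac9b at 45.2 and 68.0 TPM with 15. Pla2g1b, a secreted phospholipase, had 20666 and 33764 TPM and 13, the number also found at C4a with 0.66 and 1.08 TPM.

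At the limits of the selection, the shortest long junctions were those of Il34 (50083 bases, 60 R1 and 21 R2 reads), Itpr2 (50116 bases, 7 and 29) and Plpp1 (50136 bases, 494 and 458). Just under the length limit stood Xxylt1 (49979 bases, 71 and 48), Sppl3 (49946 bases, 316 and 198) and Rnf144a (49942 bases, 24 and 48). Exactly 5 reads in the lower count were held by 266 long junctions, 57 of them matched. A further 435 junctions of this length had 4 in the lower count, 52 of them matched.

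Depth and tissue identity were checked once. The gene tables summed to 51633637 and 61635981 expected counts over mouse genes. Of 40 marker genes, those of chief, pit, parietal and enteroendocrine cells, forestomach epithelium and smooth muscle were above 1 TPM except Slc26a7, at 0.34 and 1.15. Acta1 and Ckm of skeletal muscle averaged 559 and 213 TPM and Apoa1 572 TPM, while Alb of liver stood at 0.08 and 0.61 TPM and Myh4 of skeletal muscle at 0.01 and 0.1.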

How the data were processed

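Junctions and contigs were deposited by the authors as 1 table each on mm9, and the aligner is not given in the sources used here. Each deposited junction count equalled R1 plus R2 of its name. The contig signal (coverage) and the junction score, whose definition is not given in the sources used here, are the authors' own deposited values. Expected counts, TPM, FPKM and the percent of each isoform were deposited per library on mm10 with GENCODE M4, per the submitters' README. The quantifier is not named there.

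Matching used exact length and shared spacing, with no conversion of coordinates, and was tested on simulated data. Log2 ratios were taken of R2 over R1 scaled by total reads. Splice site motifs inside introns were not analysed, since that needs a genome sequence. Some items are not reported here. The members, the gene lists and the classes of unmatched junctions were chosen with earlier results of these data known. Named genes are the 20 members with most reads, the 10 longest matched, genes with several members, extremes of R2 over R1 and of use, up to 6 genes per list by reads, the 10 unmatched with most reads, and those at the limits. Gene pairs and examples of transcript shares were chosen after their values were seen. Intervals are exact binomial at 95%. They cover counting error only, since reads are not counted molecules. Python 3.11.15, pandas 2.3.3 and SciPy 1.17.1 were used.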

Additional observations from a re-analysis of the deposited data

How the results depend on the processing

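With at least 10 reads in both counts 1286 long junctions were left, and with at least 100000 bases 1131, of which 36.2% and 13.6% were matched introns. Of the 1286 long junctions with at least 10 reads in both, 339 were at least 2-fold lower in R2 and 90 higher. Of 7684 with 1 or more in both, 2372 were lower and 959 higher. The shares over all junctions at these 2 read limits were not counted, so these numbers describe the limits and not a trait of long junctions. Genes with matched introns numbered 241 at a TPM limit of 5, and ranged from 447 to 463 with either library left out. The share of TPM in transcripts with the intron was 80.9% in genes at TPM 5 or more, and ranged from 87.2% to 92.7% with either library left out. The median ratio of the long intron to other junctions of its gene depended on the reference. It was 1.39 against the mean of the others, 0.41 against the largest, 1.82 from R1 alone and 1.71 from R2 alone. Against the transcript of highest TPM, an alternative chosen after seeing the data, it was 2.75. Matching by length alone gave 681 introns and with at least 2 other junctions 649, while the range of spacings on the chromosome, also added later, kept 667. Motifs at the intron ends were not run. No paired analysis was possible because the series holds 1 group. With 2 libraries no test between groups was made, and depth limits the long introns of genes under 1 TPM.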

Other observations

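The table of all junctions of at least 50000 bases, whatever their reads, had steps in length. From 225000 up to 250000 bases it held 11285 junctions, and from 250000 up to 275000 bases 2172. From 475000 up to 500000 bases it held 2020, and from 500000 up to 525000 bases 135. Between 50000 and 250000 bases the number in bins of the same width stayed between 11157 and 13929. Among the selected long junctions the same bins held 102 and 27, then 13 and 2, and matched introns went from 3 to 3 across the lower step. Of all 117279 junctions of this length, 82.7% had a single read and 93.5% were missing from R1 or R2.

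Pairs of long junctions with the same counts included 1 that ran from the span of Krt42 to the Krt19 acceptor with 1804 R1 and 1132 R2 reads, the counts of the Krt17 to Krt19 junction. The Gm11597 and Krt16 junctions into Krt19 both had 654 and 424.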
